A study of Mus musculus with 53 samples.

Results

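Cell lines grown from mouse synovial sarcomas were compared with the tumors themselves, over 20 of the 53 arrays of the series. The 8 arrays of cultured cells are 4 of the line SS40 and 4 of the line SS64, each transfected with a negative control RNA (NC), and the 12 tumor arrays are the synovial sarcomas titled SS and a number. Arrays were taken by their titles, and a gene counted as changed only where both lines lay on the same side of the tumors. In the study, eMCs, primary mesenchymal cells from the limbs of BALB/c mouse embryos, were transduced with a retrovirus carrying the human fusion gene SS18-SSX1 and transplanted, and the resulting tumors grew under the skin of nude mice, which lack T cells. The SS tumors therefore hold sarcoma cells together with whatever host muscle, vessels and immune cells lay in the sample, whereas the lines grew as cells alone in DMEM with 10% serum. Total RNA of each sample was hybridised to a mouse array that reads most transcripts near their 3′ end. Each line was taken to be 1 tumor's cells, and no tumor on these arrays has the number of either line. The study's text gives the second line another number than the array titles do, and which tumor it came from could not be settled. The labels do not say whether the 4 arrays of a line came from separate cultures, so the line and not the array was the replicate. Other groups served as references: 4 arrays of eMCs with an empty vector, 4 of eMCs with SS18-SSX1, 4 of a mix of normal mouse tissues, 8 of the same 2 lines transfected with miR-214, and 13 of SS214 tumors, which were made with SS18-SSX1 and miR-214 together. The human transgene was not analysed here.

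Synovial sarcoma is a soft tissue sarcoma driven by a fusion of SS18, a subunit of the SWI/SNF (BAF) chromatin remodelling complex, to an SSX protein. The fusion protein replaces normal SS18 in the complex and brings it to sites marked by Polycomb repressors, where developmental transcription factor genes that are silent in most tissues are switched on. A cell line grows without the tissue around the tumor cells, and growth on plastic in serum is known to favour dividing, spread cells. Whether the 2 lines still expressed the fusion was not tested here.

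Levels are given as log2 of the deposited intensity, with values under a floor of 11.7 (3.55 on the log2 scale) raised to it, and differences are the mean of both line means minus the mean of the 12 tumors. A gene, read by its brightest probe set, was called when limma gave an adjusted p under 0.05 and both line means lay more than 2-fold from the tumor mean on the same side. A gene was counted as held when both line means and the whole 95% interval of the difference lay within 2-fold. Of 15888 genes tested, 987 were called higher in the lines, which is 6.21%, and 1737 lower, which is 10.9%. Another 8929 genes were held (56.2%) and 4235 were neither called nor held (26.7%). These shares are the background against which all counts of gene lists below are to be read. All 8 line arrays lay above all 12 tumors for 16.9% of the genes tested and below all of them for 18.4%. The median difference over all genes was 0.07.

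No array was left out. Array medians ran from 22.5 to 26.9 on the linear scale, and arrays of a line correlated across genes with the rest of their line at 0.993 or more, and tumors with other tumors at 0.969 to 0.982. The tumors numbered 24 and 29 read much alike in many genes. For example, *Ckm* was 10.20 in both and 10.82 to 12.84 in the other tumors. *Gsta4* was 11.09 in both and 9.867 to 10.71 in the others. Whether they are separate tumors was not tested. They were counted as 2 of the 12, and SEs and p-values would be too small if they are not separate. The median SD of a gene was 0.117 between the arrays of SS40, 0.0909 between those of SS64, and 0.210 between tumors. The signal at the 3′ end of *Gapdh* relative to its 5′ end, which rises with partial breakdown of RNA and with the amplification, differed between the groups. Its log2 ratio ranged from -0.247 to 0.185 in the 8 line arrays and from 0.326 to 1.43 in the tumors, a difference of -0.961 (exact permutation test of 2 line means against 12 tumors, two-sided p = 0.0110, the smallest of 91 arrangements). Its part in the results was not tested beyond a fit that held it as a covariate, which is given where it ended a call. The ratio did not overlap between lines and tumors, so this fit cannot separate it from the groups. It ranged from -0.331 to 0.0188 in the miR-214 line arrays and from -0.0449 to 0.483 in the SS214 tumors, and these ranges overlapped.

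**Figure D1:**
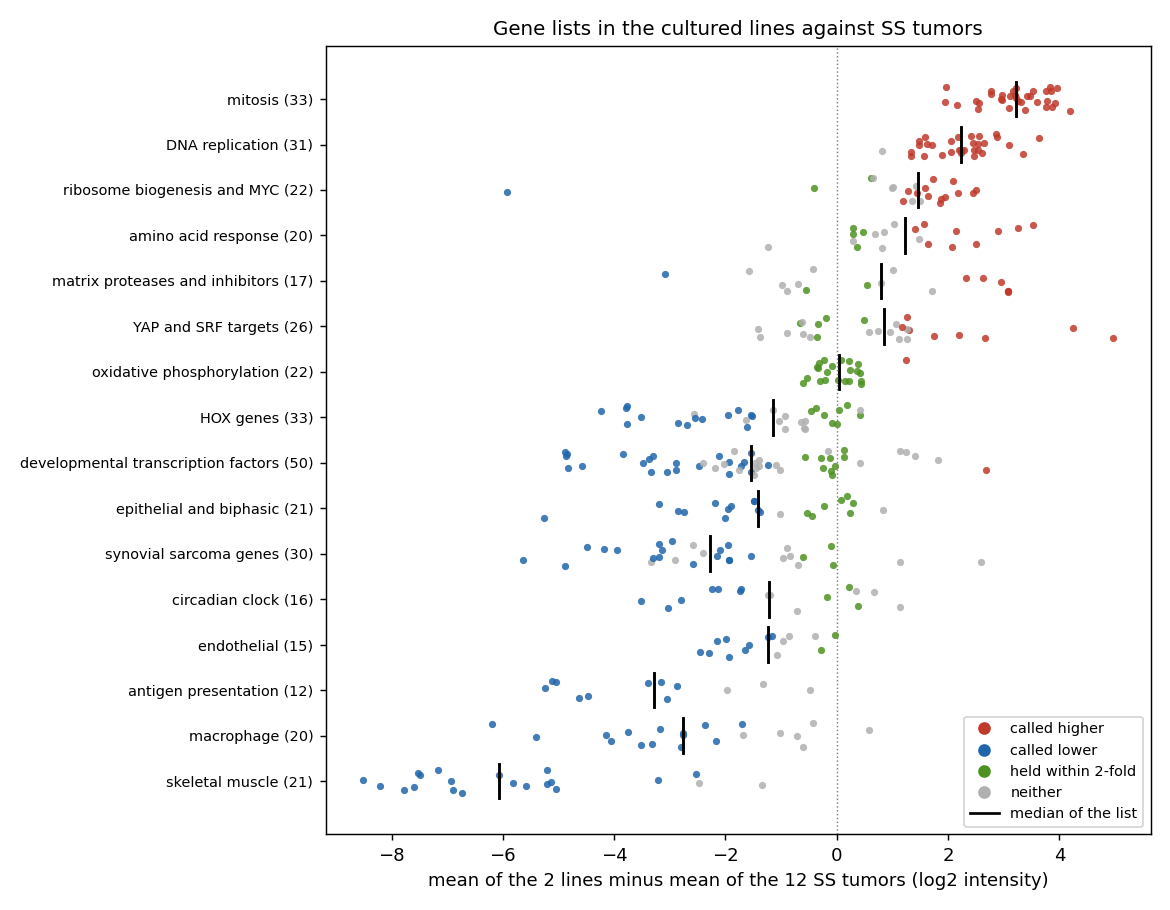
Difference between the mean of the 2 lines and the mean of the 12 SS tumors (x axis, log2 intensity) for the tested genes of 16 lists, with the number tested in brackets. Each point is a gene coloured by its call and the black bar is the median of the list. Every point of the mitosis list lies to the right of 0, at 1.94 or more, and every point of the skeletal muscle list lies to the left of it.

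The proliferation program stood higher in both lines. Of the 33 genes of the mitosis list all 33 were called higher, against 6.21% of all genes, with a median difference of 3.23, and of the 31 genes of the DNA replication list 30 were called higher, with a median of 2.23. The mean level over the mitosis list was 9.46 to 9.51 in the arrays of SS40 and 9.58 to 9.63 in those of SS64, and 5.60 to 6.67 in the tumors. The tumors were also below the eMCs with an empty vector (8.75 to 8.81) and the normal tissue mix (7.19 to 7.33), so the lines lay at the other end of this scale from the tumors. Bulk RNA cannot tell fewer cells of a kind from less RNA per cell.

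*Aurka*, the kinase that builds the spindle poles, read 9.68, 9.67, 9.75 and 9.80 in the arrays of SS40, 9.43, 9.44, 9.36 and 9.37 in those of SS64, and from 4.14 through a median of 5.54 to 5.96 in the tumors. No tumor came within 3 log2 units of either line, and the difference was 4.19 ± 0.38 (SE; limma adjusted p = 7.61e-07). *Ube2c*, a ubiquitin-conjugating enzyme of the anaphase-promoting complex, read 10.92 to 11.06 in SS40, 11.24 to 11.45 in SS64 and 6.29, 7.27 and 7.75 (lowest, median, highest) in the tumors, with a difference of 3.95 ± 0.29 (limma adjusted p = 9.67e-08). *Kif23*, a motor protein of the dividing cell's midzone, was at the floor in 8 of 12 tumors and averaged 7.59 in SS40 and 7.39 in SS64. *Mki67*, whose protein is the usual proliferation marker of pathology, differed least of the 5 named here, by 1.95 ± 0.24 (limma adjusted p = 1.31e-05), and the spindle protein gene *Tpx2* by 3.83.

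For DNA replication, the thymidine kinase gene *Tk1* differed by 3.64 ± 0.32, the origin-licensing factor *Cdc6* by 3.34 ± 0.29, the clamp loader subunit *Rfc4* by 3.09 and the S-phase cyclin gene *Ccne2* by 2.86. *Cdc7*, a kinase that fires origins and is not in the list, was held: it read 8.15 ± 0.09 in SS40, 7.11 ± 0.13 in SS64 (SD, n = 4 arrays) and 6.71 to 7.95 in the tumors, with a difference of 0.11 and a 95% interval of -0.47 to 0.68. *Ccnd1*, the G1 cyclin, was also held, at 11.31 in SS40, 12.45 in SS64 and 11.55 to 11.89 in the tumors, so that SS40 lay below all tumors and SS64 above all of them by less than 2-fold.

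The mitosis genes also share letters in their promoters that the choice of the list did not use. RefSeq windows (GRCm38.p6) from 250 bases before to 50 after each transcription start were matched for 27 of the 33 genes, 29 promoters in all. The motif TTTGAA, which is the core of the cell cycle homology region bound by the DREAM and B-MYB complexes, occurred on either strand in 22 of them (75.9%), against 17.9% of all 32851 promoters and 3 of 30 promoters of the DNA replication list (10%). CCAAT, the box of the factor NF-Y, occurred in 79.3% of the mitosis promoters and 37.4% of all, and both motifs together in 65.5% and 6.95%. The motifs can overlap by at most 1 letter, and a match describes these letters only. Stretches of 30 bases from 5 of these promoters show the motif, 5′ to 3′ on the strand of the gene, with TTTGAA or its reverse complement in capitals:
Cdk1, chr10:69352913-69352942, minus strand: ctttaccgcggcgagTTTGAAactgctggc
Cdc20, chr4:118437344-118437373, minus strand: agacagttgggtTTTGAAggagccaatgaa
Ube2c, chr2:164769888-164769917, plus strand: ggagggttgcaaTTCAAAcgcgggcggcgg
Kif11, chr19:37376351-37376380, plus strand: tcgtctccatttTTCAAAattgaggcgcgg
Prc1, chr7:80294434-80294463, plus strand: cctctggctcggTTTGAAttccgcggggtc
These are *Cdk1*, the kinase that starts mitosis, *Cdc20*, which activates the anaphase-promoting complex, the enzyme gene *Ube2c*, and *Kif11* and *Prc1*, which space the spindle. They differed by 3.31, 3.09, 3.95, 2.97 and 2.56 log2 units between lines and tumors.

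Growth genes were also higher. Of 22 genes of ribosome biogenesis and MYC, 13 were called higher, 1 lower and 2 held, with a median of 1.47, and of 20 genes of the amino acid response 9 were called higher, 0 lower and 4 held, with a median of 1.22. *Pno1* and *Nop56*, which assemble ribosomal subunits, differed by 2.44 ± 0.27 and 2.09 ± 0.21. *Psat1*, *Phgdh* and *Psph*, the enzymes of serine synthesis, differed by 3.53 ± 0.28, 2.90 ± 0.18 and 2.15 ± 0.21, and *Asns*, asparagine synthetase, by 3.25 ± 0.28. Of 22 genes of oxidative phosphorylation, 21 were held, against 56.2% of all genes, and the other was *Cycs*, cytochrome c, which was called higher at 1.24.

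Members of the MYC family went opposite ways. *Mycn*, the family member of embryonic tissues, read 7.24, 7.26, 7.22 and 7.24 in SS40, 5.41, 6.05, 5.15 and 5.35 in SS64, and had a median of 12.29 and a highest value of 12.66 in the tumors. Every tumor lay more than 4 log2 units above every line array, and the difference was -5.92 ± 0.28 (limma adjusted p = 1.24e-09). *Myc* itself read 9.35 to 9.83 in SS40, 8.70 to 8.98 in SS64 and 6.05 to 7.14 in the tumors, a difference of 2.50 ± 0.27 (limma adjusted p = 3.65e-06). In eMCs, *Mycn* averaged 12.60 with the empty vector and 5.43 with SS18-SSX1, measured 48 h after transduction. Its 3 probe sets did not move alike: their differences ran from -5.92 to -0.35.

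Cell cycle inhibitors and p53 targets went both ways. Of the 18 genes of this list, 3 were called higher, 5 lower and 3 held, against 6.21%, 10.9% and 56.2% of all genes. The median difference was -0.38. All 8 line arrays lay below all tumors for 7 of them and above all tumors for 3, against 18.4% and 16.9% of all genes. *Cdkn2a*, whose transcripts encode the inhibitors p16 and p19ARF, read 11.31, 10.99, 11.37 and 11.34 in SS40, 10.43, 10.46, 10.43 and 10.37 in SS64, and 5.95, 6.51 and 7.69 in the tumors. The lines lay above all tumors, by 4.21 ± 0.40 (limma adjusted p = 1.18e-06), and the eMCs with an empty vector averaged 6.12. Its neighbour *Cdkn2b* differed by 1.94 ± 0.16. The p53 target genes *Trp53inp1*, *Btg2* and *Sesn1* were called lower at -4.96 ± 0.15, -2.36 ± 0.28 and -2.27 ± 0.12. *Cdkn1c*, an imprinted inhibitor, was called lower at -3.62 ± 0.65, with SS40 at 7.15 and SS64 at 3.92.

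**Figure D2:**
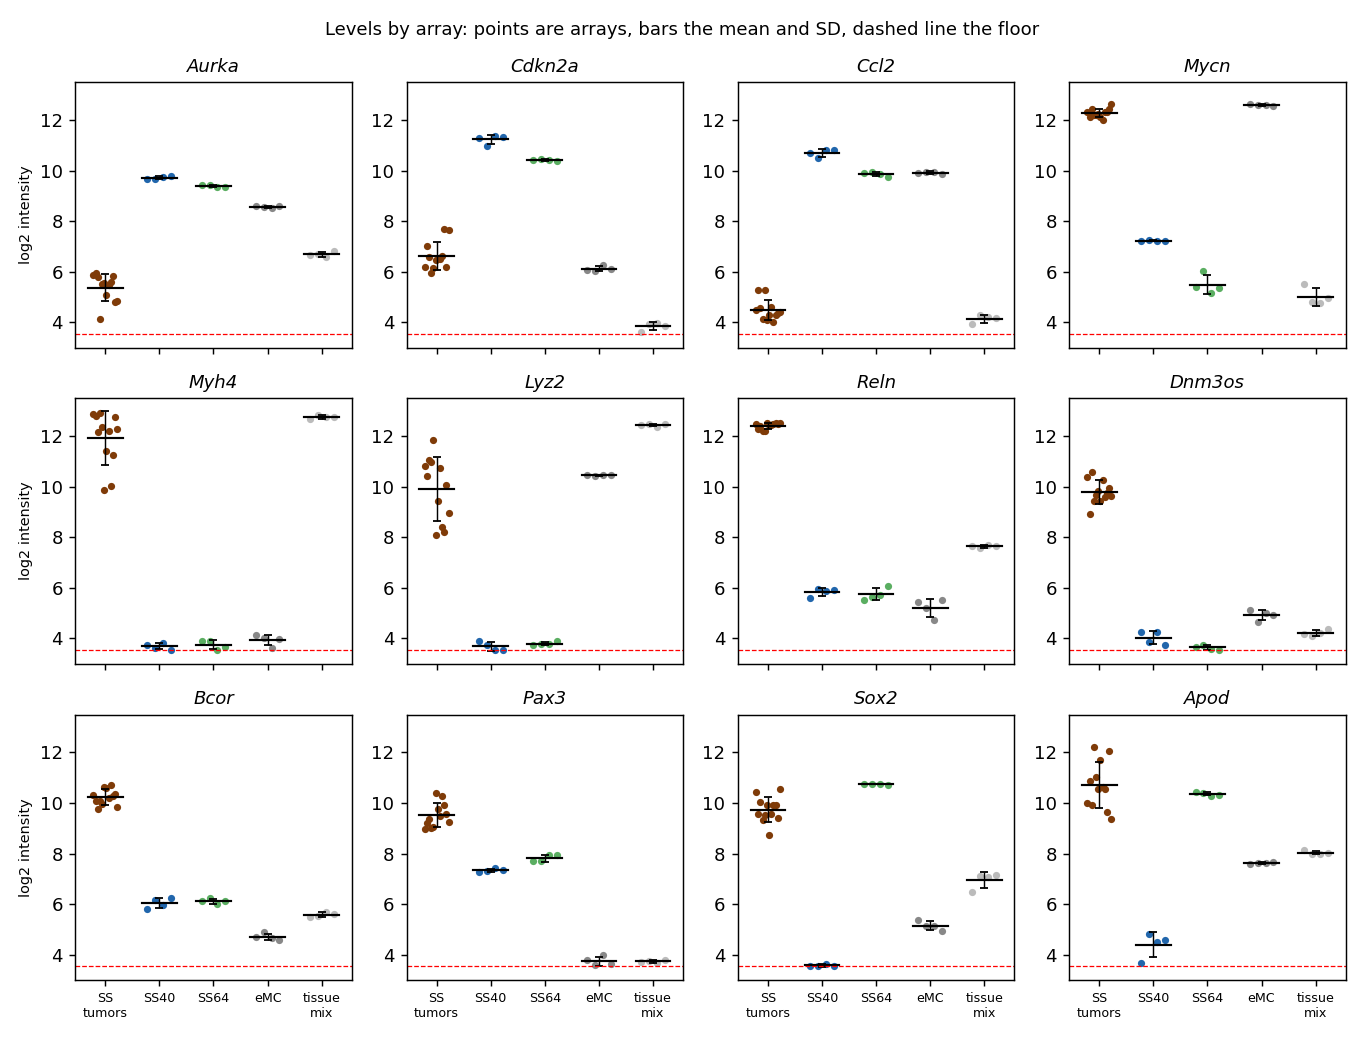
Levels of 12 genes (y axes, log2 intensity) in every array of the SS tumors, SS40, SS64, eMCs with an empty vector and the tissue mix; black bars are the mean and SD of a group and the dashed line is the floor. In 10 of the genes both lines stand apart from all tumors on the same side, whereas for *Sox2* SS40 lies below and SS64 above all tumors, and for *Apod* SS40 lies below 5 and SS64 within the tumor range.

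The 10 largest rises were of genes with varied roles. *Vgll3*, a cofactor of TEAD transcription factors, read 9.75 to 9.86 in SS40, 10.31 to 10.53 in SS64 and 3.55, 3.87 and 4.79 in the tumors, a difference of 6.14 ± 0.30 (limma adjusted p = 1.66e-09). *Prkg2*, a cGMP-dependent kinase, differed by 6.04, the surface protein gene *Tm4sf1* by 4.85, the EGF-family ligand gene *Ereg* by 4.58 and the abscission factor gene *Cep55* by 4.27. *Plscr2*, a phospholipid scramblase, and *Gdnf*, a neurotrophic growth factor, were at the floor in 9 of 12 tumors each and averaged 8.27 and 8.16 in SS40 and 8.80 and 8.83 in SS64. *Prl2c2* and *C920009B18Rik* completed the 10 largest rises, at 6.55 and 5.26; *Prl2c2* belongs to a family of near-identical genes, so its probe set may read relatives. Of the 26 YAP and SRF target genes 8 were called higher, 0 lower and 5 held, with a median of 0.84. Among them *Myof*, a membrane repair protein, differed by 4.24 ± 0.38 and *F3*, tissue factor, by 4.96 ± 0.42.

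Secreted signals and matrix enzymes split by gene. *Ccl2*, the chemokine that draws monocytes, read 10.72, 10.49, 10.84 and 10.82 in SS40, 9.90, 9.97, 9.86 and 9.76 in SS64, and 4.02, 4.39 and 5.29 in the tumors. The difference was 5.81 ± 0.31 (limma adjusted p = 4.51e-09), and the eMCs with an empty vector averaged 9.93. Of 25 chemokine genes, 3 were called higher, 2 lower and 5 held, against 6.21%, 10.9% and 56.2% of all genes. In the list of matrix proteases and their inhibitors, 6 of 17 were called higher, among them *Plaur*, the urokinase receptor, at 3.08, the aggrecanase gene *Adamts5* at 3.07 and the inhibitor gene *Timp1* at 3.07, while *Mmp9*, gelatinase B, was called lower at -3.08 although line arrays and tumors overlapped. *Cd44*, a hyaluronan receptor, differed by 4.23 ± 0.61. The matrix proteoglycan genes *Dcn* and *Lum* were called lower at -5.76 ± 0.48 and -4.83 ± 0.60, within a fibroblast matrix list of 23 genes of which 6 were called lower, 1 higher and 4 held. The collagen gene *Col1a1* was neither called nor held: it read 8.28 ± 0.36 in SS40, 9.13 ± 0.16 in SS64 (SD, n = 4 arrays) and 7.77 to 9.99 in the tumors, and its 95% interval ran from -1.32 to 0.46.

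Skeletal muscle genes made up 7 of the 10 largest falls, beside *Tmem30b*, *Apoe* and *Meg3*. Of 21 skeletal muscle genes 19 were called lower, against 10.9% of all genes, with a median difference of -6.07. *Myh4*, the heavy chain of fast muscle myosin, read 3.74, 3.62, 3.82 and 3.55 in SS40, 3.91, 3.89, 3.55 and 3.67 in SS64, and 9.86, 12.27 and 12.94 in the tumors, while the tissue mix averaged 12.76. The lines were near the floor and every tumor was far above it, with a difference of -8.21 ± 0.71 (limma adjusted p = 4.99e-07). *Tnnc2*, fast troponin C, differed by -8.50, *Myh1* by -7.78, the giant spring protein gene *Ttn* by -7.60, *Tnnt3* by -7.53, *Myl1* by -7.49 and *Ckm*, muscle creatine kinase, by -7.16. The mean level over the muscle list ran from 8.78 to 11.36 among the tumors and from 4.41 to 4.55 among the line arrays. Whether the tumor signal came from host muscle or from sarcoma cells was not tested. *Apoe*, an apolipoprotein of macrophages and many stromal cells, read 10.21 to 11.70 in the tumors and 4.19 and 4.20 on average in SS40 and SS64.

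Immune and vessel genes followed the same direction. Of 20 macrophage genes 14 were called lower and 0 higher or held, with a median of -2.77, and of 12 antigen presentation genes 9 were called lower, with a median of -3.28. *Lyz2*, lysozyme of macrophages, read 3.91, 3.75, 3.55 and 3.55 in SS40, 3.75, 3.77, 3.76 and 3.90 in SS64, and 8.11, 10.24 and 11.87 in the tumors (difference -6.19 ± 0.85, limma adjusted p = 3.70e-05). The protease gene *Ctss* differed by -5.41, the complement gene *C1qa* by -4.15, and the class II genes *H2-Ab1* and *H2-Aa* by -5.25 and -5.11. Class I *H2-D1* was lower as well, at -5.05, although near-identical class I genes may share its probes, and 1 of its 5 probe sets differed by 0.25. The mean over the macrophage list was 4.35 to 4.60 in the line arrays and 6.01 to 8.76 in the tumors. It averaged 6.97 in eMCs with an empty vector and 7.34 in eMCs with SS18-SSX1, inside the tumor range. *Cd163* was at the floor in all 8 line arrays, and with the *Gapdh* ratio as a covariate 5 of the 20 macrophage genes were called lower. The leukocyte antigen gene *Ptprc*, at -4.06 ± 1.08 (limma adjusted p = 0.00621), had an adjusted p of 0.335 with this covariate. Of 15 endothelial genes 9 were called lower and 2 held, with a median of -1.23. *Cdh5*, the cadherin of endothelial junctions, was at the floor in all 8 line arrays and at 4.69 to 6.91 in the tumors, at least 4.92-fold lower in the lines, and the pericyte gene *Rgs5* differed by -5.46 ± 0.32. None of 9 lymphocyte genes and none of 10 neutrophil genes was called in either direction, which does not show that levels were alike. The mean over the neutrophil list was 4.38 to 4.54 in the line arrays and 4.13 to 7.24 in the tumors. Over the lymphocyte list it was 4.15 to 4.30 and 3.97 to 6.89. The median SD between tumors was 1.05 over neutrophil and 0.882 over lymphocyte genes. In the miR-214 lines against the SS214 tumors 3 of the neutrophil genes and 0 of the lymphocyte genes were called lower.

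The tumors themselves varied in these genes, more in some lists than in others. The median SD between the 12 tumors was 1.06 over the muscle list, 1.00 over the macrophage list, 0.909 over antigen presentation and 1.32 over the adipocyte list, but 0.478 over endothelial, 0.401 over mural cell, 0.354 over Schwann cell and nerve and 0.184 over red cell genes. The red cell list averaged 5.26 in the tumors although *Hba-a1* read 9.70 to 12.06 there. Its other genes thus lay near the floor of 3.55 on average, where a small SD says little. Lists of the sarcoma program had a median SD close to that of the vessel lists, of 0.410 over synovial sarcoma genes, 0.422 over developmental transcription factors and 0.362 over the epithelial list, against 0.210 over all genes. The tumor numbered 30 had the lowest mean over the muscle list, at 8.78, and the tumor numbered 22 the highest, at 11.36, whereas the macrophage list was lowest in the tumor numbered 24, at 6.01, and highest in the tumor numbered 23, at 8.76.

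**Figure D3:**
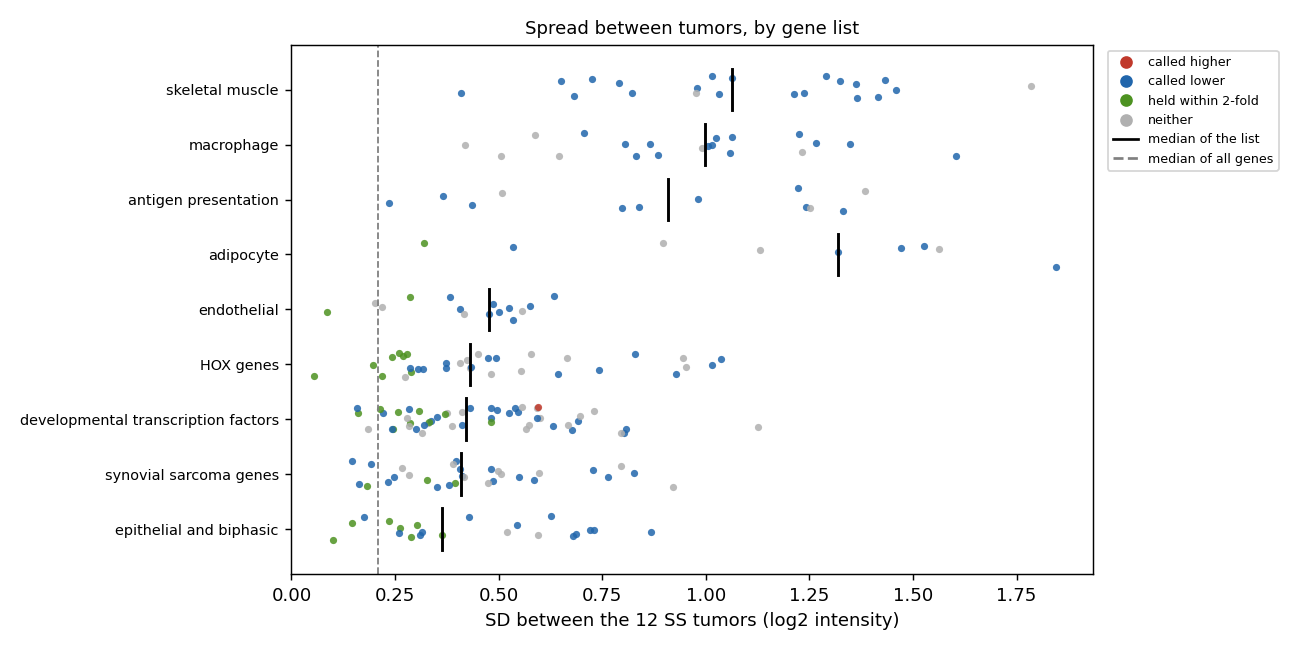
SD between the 12 SS tumors (x axis, log2 intensity) for the tested genes of 9 lists, with points coloured by their call in the lines and the black bar at the median of the list; the dashed line at 0.210 is the median over all genes. The muscle, macrophage and adipocyte lists have medians of 1.06, 1.00 and 1.32, above those of the sarcoma lists, at 0.362 to 0.422.

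Synovial sarcoma genes were lower as well. Of 30 synovial sarcoma genes 17 were called lower, 0 higher and 3 held, with a median of -2.27, and all 8 line arrays lay below all tumors for 21 of them (18.4% of all genes). This list was drawn up from genes known in human synovial sarcoma and those the study discusses, so it is not an independent one. *Tle1*, a corepressor used as a diagnostic marker, averaged 8.83 in SS40 and 8.49 in SS64, against 10.39 to 10.91 in the tumors and 8.64 in eMCs with an empty vector (difference -1.95 ± 0.12, limma adjusted p = 1.63e-08). *Igf2*, a fetal growth factor, read 6.26 to 6.74 in SS40, 5.13 to 5.66 in SS64 and 9.54 to 10.73 in the tumors, a difference of -4.18 ± 0.31. *Igf1* differed by -3.31 ± 0.37, the growth factor gene *Fgf9* by -3.95, the receptor gene *Tnfrsf19* by -4.48 and the phosphatase gene *Ptprd* by -5.63, with SS64 at the floor in all 4 arrays. The survival factor gene *Bcl2* was held, at 5.91 in SS40, 7.46 in SS64 and 6.25 to 7.50 in the tumors.

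Developmental regulators were lower too. Of 50 developmental transcription factor genes 22 were called lower, 1 higher (*Tbx18*) and 9 held, with a median of -1.54, and of 33 HOX genes 14 were called lower, 0 higher and 8 held, with a median of -1.15. *Pax3*, a regulator of neural crest and muscle precursors, read 7.28, 7.31, 7.42 and 7.33 in SS40, 7.68, 7.70, 7.93 and 7.94 in SS64, and 8.97, 9.41 and 10.39 in the tumors. The difference was -1.94 ± 0.33 (limma adjusted p = 0.000258), yet both lines stayed well above the eMCs and the tissue mix, which averaged 3.74 and 3.73. *Gli1*, the target and effector of Hedgehog signalling, read 8.89 to 10.05 in the tumors and averaged 4.79 and 4.78 in SS40 and SS64, a difference of -4.59 ± 0.23. *Lhx2* differed by -4.87 ± 0.31, *Dach1* by -4.82 ± 0.33 and *Tbx2* by -4.85 ± 0.55. Among HOX genes, *Hoxd1* was at the floor in all 8 line arrays and at 5.90, 7.04 and 9.57 in the tumors, at least 13.7-fold lower in the lines, *Hoxa5* differed by -3.78, *Hoxd4* by -3.77 and *Hoxd10* by -3.52, a call that ended with the *Gapdh* ratio as a covariate (adjusted p = 0.0714). *Hoxa9* was held, with an interval of -0.41 to 0.49.

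Some Wnt and secreted genes of the tumors were much lower in the lines. Of 20 Wnt targets and feedback genes 4 were called lower, 0 higher and 6 held: *Lgr5*, a Wnt coreceptor of stem cells, differed by -5.06 ± 0.23, the feedback gene *Axin2* by -2.51 ± 0.32, and *Wif1*, a secreted Wnt inhibitor, was at the floor in all line arrays and at least 5.48-fold lower, while the gene of beta-catenin itself, *Ctnnb1*, was held at -0.26. One probe set of *Lgr5* differed by 0.01 and its other by -5.06. *Reln*, a large secreted guidance protein of the brain, read 5.59, 5.95, 5.88 and 5.90 in SS40, 5.54, 5.65, 5.71 and 6.08 in SS64, and 12.22, 12.45 and 12.53 in the tumors. Its SD between tumors was 0.112, under the median of all genes, and it was lower in the lines by 6.63 ± 0.09 log2 units (limma adjusted p = 2.34e-15). *Tmem30b*, a partner of lipid flippases, read 3.95 to 4.60 in SS40, 3.69 to 4.07 in SS64 and 11.66 to 12.89 in the tumors, a difference of -8.22 ± 0.23. The long noncoding RNA *Meg3* was lower by 7.01 ± 0.16, with its 10 probe sets between -7.73 and -0.15, and its imprinted neighbour *Dlk1* by 5.25 ± 0.42. Of 21 epithelial genes 12 were called lower and 7 held, *Epcam* among the former at -3.19 ± 0.43 and the protease inhibitor gene *Spint2* at -5.26 ± 0.52.

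Chromatin subunit genes were held about as often as other genes. Of 26 SWI/SNF subunit genes 15 were held, 5 called lower and 2 higher, and of 30 Polycomb subunit genes 16 were held, 8 lower and 4 higher, against 56.2% held, 10.9% lower and 6.21% higher over all genes. This is a description of the lists, and no test of them was made. In the miR-214 lines against the SS214 tumors, 0 of the 26 SWI/SNF genes were called higher and 2 lower. Of the 30 Polycomb genes 2 were called higher there and 5 lower, against 4.87% and 10.1% of all genes. *Bcor*, a subunit of the noncanonical Polycomb complex, read 5.82, 6.16, 5.96 and 6.22 in SS40, 6.12, 6.23, 5.99 and 6.11 in SS64, and 9.77, 10.24 and 10.73 in the tumors, a difference of -4.16 ± 0.22 (limma adjusted p = 3.05e-09). Both lines lay above the eMCs with an empty vector, which averaged 4.70, by less than they lay below the tumors. *Jarid2*, *Phf1* and *Ezh1* were called lower at -2.75, -2.17 and -1.54, and *Ezh2*, the methyltransferase of dividing cells, higher at 2.03 ± 0.22. Among SWI/SNF subunits, the ATPase gene *Smarca2* was lower at -3.44 ± 0.40, with SS40 at 8.06 and SS64 at 5.43, and *Smarcb1* was held at -0.13.

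*Dnm3os*, the noncoding RNA gene that hosts miR-214 inside the gene *Dnm3*, bears on the study's question directly, since the study added miR-214 to tumors and lines. It read 4.27, 3.87, 4.25 and 3.74 in SS40, 3.67, 3.76, 3.59 and 3.55 in SS64, and 8.91, 9.71 and 10.59 in the tumors. Every line array was near the floor and below the eMCs with an empty vector, at 4.92 on average, while every tumor was above both, with a difference of -5.95 ± 0.32 (limma adjusted p = 4.91e-09). The array does not read mature miRNAs. Those that lie within *Dnm3os* (chromosome 1, 162217623 to 162225550, GRCm38.p6) are given from RefSeq, 5′ to 3′ with the seed (bases 2 to 8) in capitals, since the seed decides which target sites a miRNA can pair with:
miR-214-3p: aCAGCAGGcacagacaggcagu
miR-214-5p: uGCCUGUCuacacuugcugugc
miR-199a-5p: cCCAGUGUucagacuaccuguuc
miR-199a-3p: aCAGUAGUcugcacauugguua
The 4 seeds differ from each other.

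Genes that set the tumors apart from normal references were taken as a further set, chosen after the values had been seen: those more than 4-fold higher in SS214 tumors than in both the tissue mix and the eMCs with an empty vector, a choice that used none of the 20 arrays. Of these 175 genes, 154 were called lower in the lines (88.0%, against 10.9% of all genes). None was called higher and 1 was held, against 6.21% and 56.2% of all genes. All line arrays lay below all SS tumors for 155 (88.6%, against 18.4% of all genes). Since the set was chosen for high levels in similar tumors, no test was made on it. The median difference was -3.28 in SS40 and -3.54 in SS64, and the median SD between SS tumors was 0.470. The held gene was *Zfp97*, a zinc finger gene, at 8.50 in SS40, 8.25 in SS64 and 8.24 to 8.92 in the tumors. Both lines were within 2-fold of the tumors for 3 of the genes, *Zfp97*, *Csrp2* and *Hoxd12*. *Hoxd12* averaged 3.62 in SS40, 3.66 in SS64 and 4.20 in the SS tumors, near the floor of 3.55, so it does not show a level kept by the lines. SS40 was within 2-fold and SS64 more than 4-fold below for 4 genes, *Bmper*, *Mdk*, *Lhx1os* and *Hoxb9*, and the reverse held for 6, *Sox2*, *Ngfr*, *Flrt3*, *Lhx9*, *Tmem200c* and *Gja3*. The set also holds genes of mast cells, a host cell, such as *Cpa3*, a carboxypeptidase of their granules, at -4.48. Others of the set were *Mnx1* and *Evx1*, homeobox genes of the spinal cord, at -4.38 ± 0.36 and -3.76 ± 0.39, and *Hes1*, the Notch effector, at -2.74 ± 0.34 with SS40 at 6.60 and SS64 at 8.68.

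**Figure D4:**
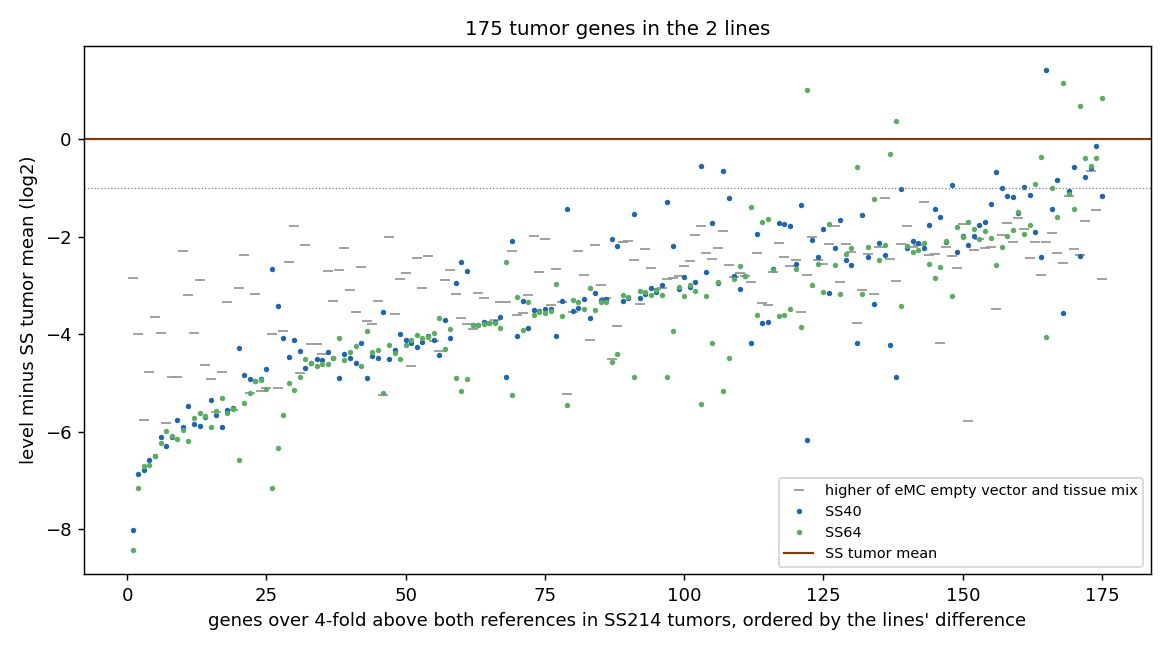
The 175 genes more than 4-fold higher in SS214 tumors than in both references, ordered along the x axis by the difference of the lines; the y axis gives the level minus the SS tumor mean (log2) in SS40 and SS64, and grey ticks mark the higher of the 2 references. Most points of both lines lie below the dotted line at 2-fold lower, with medians of -3.28 and -3.54, and a few genes keep tumor level in 1 line only.

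The 2 lines lay on opposite sides of all tumors for 260 genes, 1.64% of those tested, and by the rule such genes are not called. SS40 lay above all tumors and SS64 below all of them for 116, and the reverse held for 144. The genes named in this paragraph were chosen after their values were seen, except for *Sox2* and *Apod*, which a gene list holds, and no test between the lines was made, since each line is 1 sample. *Sox2*, a pluripotency and neural crest regulator, read 3.55, 3.55, 3.64 and 3.55 in SS40, 10.74, 10.74, 10.74 and 10.73 in SS64, and 8.73, 9.75 and 10.55 in the tumors. It was thus at the floor in 3 of 4 arrays of SS40 and above every tumor in SS64. *Apod*, a lipid carrier gene that is high in nerve sheath cells, read 3.67, 4.81, 4.49 and 4.57 in SS40 and 10.42, 10.40, 10.29 and 10.33 in SS64, inside the tumor range of 9.39 to 12.23. *Ngfr*, the low-affinity neurotrophin receptor of neural crest cells, averaged 5.16 in SS40 and 10.40 in SS64, against 8.93 to 10.69 in the tumors. SS64 went beyond the tumors for *Sox10*, the master regulator of neural crest and Schwann cells, at 9.60 against 4.72 to 5.63, for *Foxd3* at 8.08 against 4.30 to 5.85 and for the adhesion gene *L1cam* at 9.30 against 5.12 to 6.61, while SS40 was at 5.11, 4.41 and 4.84.

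Other genes were higher in SS40 than in SS64. *Crabp2*, a retinoic acid carrier, averaged 10.34 in SS40, 4.86 in SS64 and 8.18 to 9.41 in the tumors, and *Stmn2*, a neuronal microtubule protein, 11.07, 3.55 and 9.13 to 10.27. *Mdk*, the growth factor midkine, averaged 8.93 in SS40, inside the tumor range of 8.57 to 10.28, and 4.42 in SS64. *Twist1*, a mesenchymal regulator, was below all tumors in both lines, at 8.64 in SS40 and 5.58 in SS64, against 9.06 to 9.93. *Prrx2*, a homeobox gene of limb mesenchyme, reached 9.80 in SS40, over the tumors at 4.32 to 6.41, and 4.02 in SS64. The neutrophil chemokine gene *Cxcl5* was at 11.43 in SS40, 3.83 in SS64 and at the floor in 10 of 12 tumors, and the stromal chemokine gene *Cxcl12* was at 11.26 in SS40, 5.97 in SS64 and 10.88 to 11.70 in the tumors. Over all genes, the mean profile of SS40 correlated with that of SS64 at 0.929, with eMCs carrying the empty vector at 0.914, with SS tumors at 0.849 and with the tissue mix at 0.759; for SS64 the values were 0.896, 0.838 and 0.761 with the last 3. These are correlations across genes, which are not independent replicates.

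**Figure D5:**
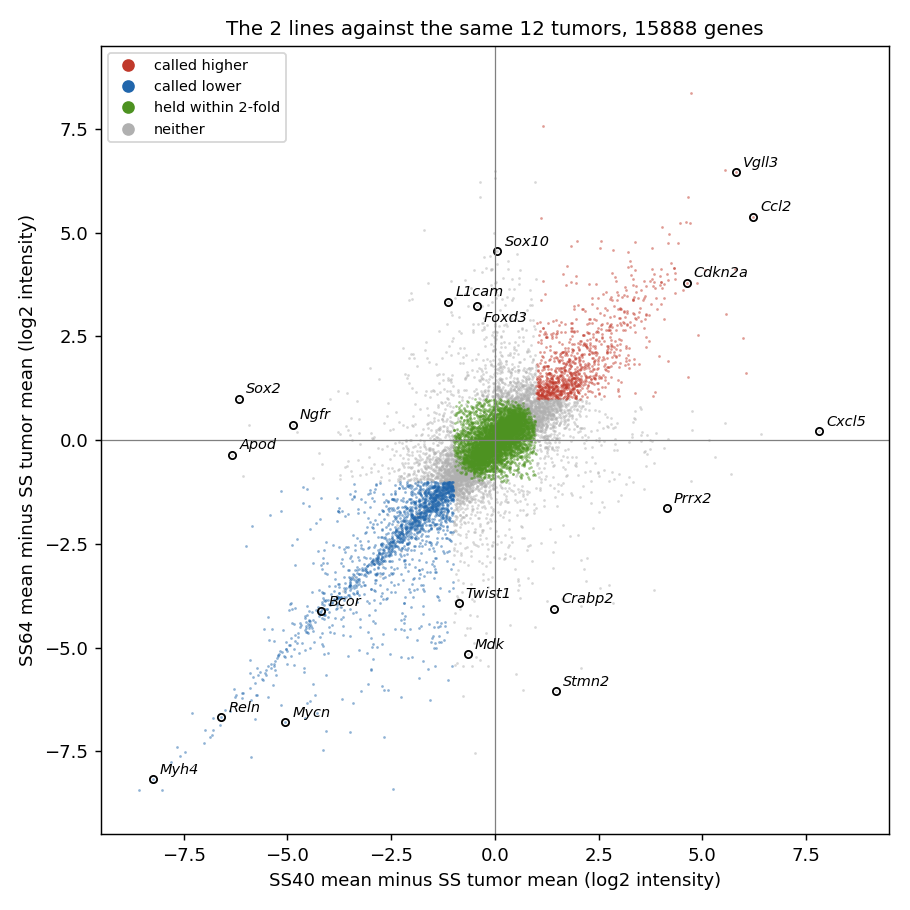
Difference from the mean of the 12 SS tumors in SS40 (x axis) and in SS64 (y axis), log2 intensity, for 15888 genes coloured by call; named genes are circled. Genes called in both lines lie along the diagonal, *Sox2*, *Apod* and *Ngfr* lie to the left, within 2-fold of the tumor mean in SS64, *Mdk* lies low, within 2-fold of it in SS40, and *Stmn2* and *Crabp2* lie lower right, below all tumors in SS64 and above all of them in SS40.

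The 10 held genes that stood farthest above both the tissue mix and the eMCs with an empty vector were *Dmrta2*, *Cdc7*, *Ankrd26*, *Tex9*, *Gadd45b*, *Cenpj*, *Fam89b*, *Zfp97*, *Simc1* and *Xpo5*, with the smallest of the tumor and line means above the higher reference by 1.02 to 1.50 log2 units. *Dmrta2*, a transcription factor of neural progenitors, led them, at 6.64 ± 0.38 in SS40, 5.87 ± 0.14 in SS64 (SD, n = 4 arrays) and 5.11 to 6.49 in the tumors, with an interval of -0.32 to 0.89. *Gadd45b*, a stress response gene, read 9.06 to 9.61 in SS40, 9.30 to 9.65 in SS64 and 8.88 to 9.80 in the tumors, and its difference was -0.02 with an interval of -0.46 to 0.41. In the 8 miR-214 line arrays against the 13 SS214 tumors, however, *Gadd45b* differed by -0.85 (limma adjusted p = 0.00799). *Xpo5*, the export receptor of miRNA precursors, was held at 0.25.

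The same contrast was then read in arrays it had not used, the lines with miR-214 against the SS214 tumors, in which 4.87% of 15943 genes were called higher and 10.1% lower. The 2 lines are the same in both contrasts, so the second one uses other arrays and other tumors but no other lines. The labels do not say whether the cultures were separate. Of the 987 genes called higher, 636 were called higher again (64.4% of these and 82.0% of the 776 called there) and 984 differed in the same direction. Of the 1737 genes called lower, 1257 were called lower again (72.4%, and 77.8% of 1615) and 1723 differed in the same direction, and in neither direction was a gene called the opposite way. Of the mitosis list 32 of 33 were called higher there, of the synovial sarcoma list 16 of 30 lower, and of the macrophage list 16 of 20 lower. *Mycn* differed by -4.55, *Cdkn2a* by 4.75, *Reln* by -6.09, *Bcor* by -3.71, *Pax3* by -1.96 and *Dnm3os* by -5.19 (limma adjusted p from 5.54e-10 to 1.65e-05). *Cdh5* and *Axin2* were not called in these arrays, nor were *Hmox1* and *Me1* of the NRF2 response, which had been called higher at 2.39 and 1.96.

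The called genes also differed between the reference samples. Of the genes called higher in the lines, 45.6% were more than 2-fold above the tissue mix in eMCs with an empty vector, against 10.4% of all genes tested. Of those called lower, 41.3% were more than 2-fold below the mix in these cells, against 16.0% of all genes. The eMCs differ from the mix in cell type as well as in culture. These cannot be told apart here, and the cause of the shares was not tested. Circadian clock genes were lower in the lines too: of 16, 7 were called lower and 3 held, with *Per3* at -3.52 ± 0.22, *Npas2* at -3.03 ± 0.23 and *Per2* at -2.13 ± 0.30, and the eMCs averaged 5.21, 4.53 and 4.39 for these 3, against 8.75, 6.60 and 6.16 in the tumors. The mean over the clock list was 7.55 in the tumors, 7.02 in the tissue mix and 6.44 in eMCs with an empty vector. Of 14 interferon-stimulated genes 7 were called lower, such as *Usp18* at -3.23 ± 0.37, and 1 higher, *Ifit2* at 3.82 ± 0.49.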

How the data were processed

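Biotin-labelled RNA of 53 samples was hybridised to Affymetrix mouse arrays. The authors deposited linear intensity values (45141 probe sets). Per the labels MAS5 was used, and the study's methods name GeneSpring; background correction and scaling are not given in the sources used here. Of the probe sets, 28898 had 1 gene symbol, 551 several and 15588 none, and 28689 symbols were updated through gene IDs. From the deposited intensity, log2 values were taken above a floor at 11.7, the median of the arrays' 20th percentiles. The 39393 probe sets above it in at least 4 of the 20 arrays entered limma 3.58.1 in R 4.3.3 (lmFit, eBayes with trend, Benjamini-Hochberg over all of them), each line as the mean of its 4 arrays. In simulated data for this comparison (39393 probe sets), 100% of 50 8-fold and 94.0% of 100 3-fold changes were called, and 0.0153% of 39193 unchanged probe sets. There the lines were drawn with the spread of the tumors, and changes were placed only in probe sets well above the floor. These shares therefore do not cover lines that differ more than tumors do, or genes near the floor.

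The members and 43 gene lists were chosen with earlier results of these data known. Named by rule were the 10 largest rises and falls without overlap (by the smaller line difference), the 4 called genes that changed most in each list described, genes the study discusses, and the 10 held genes farthest above both references; all others were named after their values were seen. Alternatives were quantile normalization, other floors, filters and probe set rules, the 8 arrays as separate samples, the methods' t-test, single lines, an RNA ratio covariate, no fold threshold and left-out arrays, and counts for lists under them were added after seeing the data. Python 3.11.15 and matplotlib 3.10.9 drew the figures.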

Additional observations from a re-analysis of the deposited data

Results flagged for a closer look

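In each group of 4 line arrays, the highest or lowest array was compared with the other 3 for every gene named in the text and for the RNA ratios. In 30 of 332 such groups 1 array stood apart, where chance alone gives about 5% of groups, and the groups share their arrays. In 4 genes of SS40 (*Gja3*, *Npas2*, *Sox2* and *Ttn*) and in *Lhx2* and *Npas2* of SS64, the other 3 arrays were all at the floor of 3.55, and the lone array read 3.63, 3.57, 3.64, 3.59, 3.64 and 3.70.

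Array 2 of SS40 was the lone one most often. For *Actb*, its 3′ signal over its 5′ signal was 0.813 on the log2 scale, against 0.159 to 0.209 in the other 3, and it was lowest for *Cdc20* at 10.04, *Cdkn2a* at 10.99, *Hoxa9* at 5.43, *Prkg2* at 9.17 and *Txnrd1* at 9.88. The other 3 arrays read 10.16 to 10.17, 11.31 to 11.37, 5.84 to 5.91, 9.82 to 9.93 and 10.28 to 10.31 for these genes. Without this array each of these genes kept its call, or its lack of one. Array 4 of SS40 stood apart for *Dach1* at 4.69, *Phf1* at 5.54 and *Rgs5* at 4.35, and array 1 for *Dmrta2* at 7.20, *Msmo1* at 9.39 and *Myh1* at 3.86.

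In SS64, array 4 stood apart for the *Actb* ratio at 0.116, *Apoe* at 3.94, *Evx1* at 4.56, *Fosl1* at 8.41 and *Lyz2* at 3.90. Array 3 stood apart for *Ccl7* at 5.72, *Col1a1* at 8.90, *Ereg* at 8.48, *Myof* at 9.53 and *Prl2c2* at 12.51, array 2 for *Per2* at 4.29 and array 1 for *Spint2* at 4.41.

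For 6 genes named in the text, all arrays of one line lay above and all arrays of the other below every tumor. SS40 minus SS64 was 5.48 for *Crabp2*, 5.78 for *Prrx2* and 7.52 for *Stmn2* on the log2 scale. The lines stood the other way round for *Ccnd1* at -1.15, *L1cam* at -4.46 and *Sox2* at -7.17. These differences between the lines were not tested, since each line is 1 sample.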

How the results depend on the processing

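The counts of genes called were recomputed under other settings and by leaving out each array. Without 1 array at a time, 969 to 1008 genes were called higher, 1705 to 1752 lower and 8848 to 8952 held, and in the other arrays 621 to 644 and 1244 to 1267 were called again. With SS40 alone 1663 genes were called higher and 2216 lower, with SS64 alone 1532 and 2094, and without the 2-fold threshold 4849 were called higher and 3816 lower. All other settings run gave 896 to 1446 genes higher, 1390 to 1957 lower and 6845 to 10114 held. Quantile normalization gave 1077 and 1582, and calling a gene if any probe set was called gave 1446 and 1957, with 13 genes called both ways. With the *Gapdh* ratio as a covariate 948 genes were called higher and 1465 lower, and 5 macrophage genes in place of 14. In the miR-214 lines against the SS214 tumors, whose ratios overlapped, 16 of the 20 macrophage genes were called lower without a covariate. The macrophage list was also higher in the SS214 tumors, at 7.75 on average against 7.05 in the SS tumors. The counts therefore cannot tell the ratio from the level of these genes, and the part of the ratio was not tested. The methods' t-test with the 2-fold threshold called 988 and 1751 genes unadjusted, and 984 and 1708 after Benjamini-Hochberg.

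*Crabp2* and *Stmn2*, not called with both lines, reversed to higher with SS40 alone, at 1.42 and 1.47. Of the other genes named in the report and here, *Axin2*, *Cycs*, *Ezh1*, *Fgfr1*, *Itga6*, *Per2*, *Sc5d* and *Vegfa* lost their calls with the mean over probe sets, *Fdps*, *Hoxd10* and *Ptprc* with the *Gapdh* covariate, *Fdps*, *Me1* and *Mmp9* with SS40 alone and *Ccl7*, *Me1* and *Ptprc* with SS64 alone, and the cause was not tested. Without 1 array, *Gclm* lost its call (SS40 array 1), as did *Fdps* (SS40 array 3 or 4, or the tumor numbered 20 or 22), since the mean of SS40 then fell within 2-fold of the tumors, and *Lhx1os* gained one (SS40 array 2). The *Actb* pair in place of *Gapdh* gave a 3′ to 5′ difference of -0.631. No paired analysis was possible because the numbers of tumors and of line arrays name unrelated samples, with no animal or culture in common by the labels. Only 2 lines were measured, so the spread between lines is poorly known, and levels near the floor give no order.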

Other observations

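Further gene lists were measured in the same fit. Of 16 genes of the NRF2 response, which guards cells against oxidants, 6 were called higher, 1 lower and 5 held, with a median of 0.95. *Hmox1*, heme oxygenase, read 7.88 on average in SS64, 8.91 in SS40 and 5.41 to 6.89 in the tumors, and the glutathione and thioredoxin enzymes *Gclc*, *Gclm* and *Txnrd1* differed by 1.56 ± 0.19, 1.23 ± 0.17 and 1.57 ± 0.13. The glutathione transferase gene *Gsta4* was called lower, at -3.24 ± 0.58, with SS40 at 9.00 and SS64 at 5.46. Of 21 immediate early genes 3 were called higher, 5 lower and 7 held. The AP-1 gene *Fosl1* averaged 8.09 in SS40 and 8.27 in SS64, against 4.08 to 4.44 in the tumors, and differed by 3.92 ± 0.11 (limma adjusted p = 5.20e-12), *Ier3* differed by 2.62, and *Klf4*, a factor of quiescent cells and epithelia, by -2.46 ± 0.15. Of 21 integrin and focal adhesion genes 4 were called higher, 1 lower and 6 held, with the integrin subunit gene *Itga6* at 2.36 ± 0.39 and *Cav2*, a coat protein of caveolae, at 2.69 ± 0.42.

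Of 19 genes of cholesterol synthesis 3 were called higher, 1 lower and 3 held, with a median of 0.53: the enzymes *Msmo1*, *Sc5d* and *Fdps* differed by 2.80 ± 0.26, 1.91 ± 0.23 and 1.80 ± 0.41, and *Tm7sf2* by -2.41 ± 0.37. The sterol element TCACNCCAC occurred on either strand in 1 of 17 promoters of this list (5.88%) and in 1.24% of all. GAAANNGAA, the core of the interferon response element, occurred in 7 of 13 promoters of the interferon-stimulated list (53.8%) and in 8.56% of all. Of 22 genes of glycolysis and hypoxia, 1 was called higher (*Slc2a1*, the glucose transporter, at 1.61 ± 0.26), 1 lower (*Vegfa*, the vessel growth factor, at -1.50 ± 0.18) and 4 held, against 6.21%, 10.9% and 56.2% of all genes, so that 16 were neither called nor held. Of 18 ER chaperone genes 11 were held and 1 was called lower, of 15 heat shock and chaperonin genes 2 were called higher and 4 held, and of 18 lysosome genes 12 were held, 2 called higher and 2 lower, the last with the bone and tumor protease gene *Ctsk* at -4.44 ± 0.26.

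Some other lists of host cells had many genes called lower, against 10.9% of all genes, and others did not. Of 10 mast cell genes 7 were called lower and 1 held, of 9 adipocyte genes 5 and 1, of 8 mural cell genes 5 and 1, and of 11 complement genes 3 and 2, and none was called higher. The mast cell tryptase gene *Tpsab1* averaged 4.26 in SS40 and 4.24 in SS64, against 7.64 to 10.19 in the tumors, and *Serping1*, the complement C1 inhibitor, 4.04 and 3.90, against 9.03 to 11.38. *Car3*, a carbonic anhydrase of fat and muscle, differed in both lines but unequally: SS40 averaged 9.83 and SS64 3.88, against 11.40 to 12.87 in the tumors. Of 5 red cell genes 4 were held and the globin gene *Hba-a1* was called lower at -5.08 ± 0.43. The 4 held genes lay near the floor on average in the tumors and the lines, so the count does not show that they were kept. Of 9 skin genes and 8 Schwann cell and nerve genes 1 each was called lower, near the share over all genes, with 1 and 2 held. Of 12 basement membrane genes 1 was called higher, 2 lower and 4 held. Among 20 neuronal genes 7 were called lower, 2 higher and 5 held, with *Stmn3* at -3.99 ± 0.62 and the growth cone protein gene *Gap43* at 2.99 ± 0.41. Of 39 tested genes that the study discusses, 2 were called higher (the chemokine genes *Ccl2* and *Ccl7*), 8 lower and 13 held, and *Fgfr1*, a fibroblast growth factor receptor, was among those lower, at -2.58 ± 0.39, with SS40 at 8.18 and SS64 at 5.78.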
